A study of Mus musculus with 5 samples.

Results

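The tissue inhibitors of metalloproteinases (TIMP) are small proteins that block the enzymes which cut the extracellular matrix. The 4 mouse genes of the family, Timp1, Timp2, Timp3 and Timp4, were read from SLAMseq libraries of cultured cardiac fibroblasts (CF), as the 4 entries with these names among 20365 gene names. In SLAMseq, cells take up 4-thiouridine (S4U) and put it in place of uridine in RNA made from then on, and after alkylation these positions are read as C where the gene has T. All CF came from hearts of healthy, adult, male C57Bl/6J wildtype mice and were grown to confluency after enzymatic isolation. In the isolation that the study describes, epicardial cells were taken off by shaking hearts in collagenase, which was then thrown away. Endothelial (CD31+) and immune (CD45+) cells were taken off with magnetic beads. The labeled group had 3 libraries of CF kept for 12 h in medium with 0.1 mM S4U, and the unlabeled group had 2 libraries of CF kept for the same 12 h in medium without S4U. RNA of both groups was alkylated with iodoacetamide. The study describes its SLAMseq replicates as separate fibroblast preparations, but neither its text nor the labels tie a library to a preparation. The tests measure the spread between these libraries.

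TIMP proteins bind to the catalytic zinc site of matrix metalloproteinases (MMP) and of some related ADAM and ADAMTS enzymes and so slow the breakdown of matrix. TIMP1 and TIMP2 are soluble, TIMP3 binds to the matrix, and TIMP4 is known for its high level in the heart. CF are a main source of cardiac matrix, and the balance between MMP and TIMP is a classic measure of cardiac remodeling. The T>C conversion rate, the share of covered T positions read as C, rises with the part of a transcript that was made during labeling. It is a measure of turnover in the strict sense for a transcript whose level holds steady over the labeling time.

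Each gene was read on the 3′ end interval with the highest mean CPM (read count scaled to the library) in the labeled libraries. All coordinates are on GRCm39. The interval of Timp1 (ENSMUSG00000001131.13) was chrX:20740872-20740976 on the plus strand, with 105 bases and 28 T positions. Timp2 (ENSMUSG00000017466.12) was read on chr11:118191887-118194524 on the minus strand, with 2638 bases and 733 T positions. For Timp3 (ENSMUSG00000020044.15) the interval was chr10:86181767-86185369 on the plus strand, with 3603 bases and 1067 T positions. Timp4 (ENSMUSG00000030317.10) was read on chr6:115221405-115223326 on the minus strand, with 1922 bases and 530 T positions. All 4 intervals lay in annotated exons of their gene. Timp1, Timp3 and Timp4 lie inside synapsin genes (Syn1, Syn3 and Syn2) that are transcribed from the opposite strand, and the locus of Timp2 overlaps Cep295nl and, on the opposite strand, 4921501M06Rik, both outside the counted interval. Syn1, Syn2, Syn3 and Cep295nl themselves had at most 9 reads in any library, and 4921501M06Rik was not analysed here.

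The end of each interval was searched on the transcribed strand for the poly(A) signal AATAAA and its variant ATTAAA, since 3′ end libraries start at the poly(A) tail. The sites below are the ones nearest to the end of each counted interval, in capitals within 30 bases of GRCm39 sequence read 5′ to 3′ on the gene's strand.
Timp1 (chrX:20740939-20740968, plus strand): cttagatggtgaAATAAAgaactatcagac
Timp2 (chr11:118191893-118191922, minus strand): ctgtcaatggacAATAAAccatattatcaa
Timp3 (chr10:86184964-86184993, plus strand): acttaaaaaaaaAATAAAgtctgatggtag
Timp4 (chr6:115221405-115221434, minus strand): tcacagatttgttactctctcacATTAAAa

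The Timp1 signal ended 20 bases before the end of its interval and the Timp2 signal 18 bases before it. The 2 AATAAA sites of Timp3 ended 388 and 2106 bases before its interval's end. The Timp4 interval had no AATAAA, and its ATTAAA ended 1 base before the interval did. Of 13 annotated Timp4 transcripts, 8 end beyond the interval, 4 of the 6 coding ones among them, so that reads at those ends were not counted here. No annotated transcript of Timp1, Timp2 or Timp3 ends more than 10 bases beyond the counted interval. All 9 transcripts of Timp1, 11 of 12 of Timp2 and 3 of 9 of Timp3 end within it. Among 40380 intervals, AATAAA was found in 68.1% and ATTAAA in 40.7%.

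AU-rich elements around the pentamer ATTTA are known from short-lived mRNA, and the intervals were searched for them on the transcribed strand. Timp3 held 8 copies, and 2 of these lie in the longer word TATTTAT, which are shown here with that word in capitals.
Timp3 (chr10:86183407-86183436, plus strand): cagattatgggTATTTATcctctattagta
Timp3 (chr10:86185247-86185276, plus strand): ttcctccatgtTATTTATgaattttatatt

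Timp2 held no ATTTA in 2638 bases, while 94.7% of the 1915 intervals within 10% of its length held at least 1. Timp1 held none in 105 bases, where 12.3% of intervals of like length have 1, and Timp4 held 2. Of intervals of the Timp3 length, 98.2% hold ATTTA and 58.8% hold TATTTAT. The 230 deeply covered ones among them, with 1000 or more covered T positions in each library, have a median of 7 copies, and 41.7% have 8 or more. TGTANATA, the core of the Pumilio motif, was in none of the 4 intervals. It was in 19.7% of all intervals, and in 2.36%, 41.3%, 50.3% and 33.1% of those of the Timp1, Timp2, Timp3 and Timp4 length. Over all intervals, 55.9% hold ATTTA and 22.6% hold TATTTAT. Absence here says only that these letters are not in the counted window.

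With 1 interval for each gene, the libraries held 506045 to 1843081 counted reads. The rate over all intervals was 0.0353 to 0.0358 in labeled libraries and 0.00111 and 0.000652 in the unlabeled ones. The deposited CPM is relative to 10975173 to 14616278 reads per library, so that it falls with the share of reads that were counted, and labeled replicate 3 had the smallest share. Levels are therefore also given as relative CPM, in which the counted reads are the denominator. All 8 CF markers on the list (Col1a1, Dcn, Pdgfra and others) had reads in every library and summed to between 32802 and 44089 relative CPM. On the same scale, leukocyte markers summed to at most 85.4, endothelial markers to at most 135.5, mural markers to at most 14.1, cardiomyocyte markers to at most 8.03, Schwann cell markers to at most 6.69 and mesothelial markers to at most 5.93. Of the listed markers, Myl2, Ryr2, Msln and Sox10 had no reads in any library. In labeled libraries 4 of 6 cardiomyocyte, 2 of 3 mesothelial and 1 of 3 Schwann cell markers did have reads.

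T>C conversion set Timp2 apart from Timp1 and Timp3 (plot of T>C conversion rates by library). Timp1 had rates of 0.0397, 0.0445 and 0.0443 in labeled replicates 1 to 3, with a mean of 0.0428 ± 0.0027 (SD, n = 3). Timp3 had 0.0397, 0.0445 and 0.0436, with a mean of 0.0426 ± 0.0025 (SD, n = 3). Timp2, which besides inhibiting MMP2 also helps MMP14 to activate it, had 0.0181, 0.0190 and 0.0180, with a mean of 0.0184 ± 0.00053 (SD, n = 3). The lowest Timp1 or Timp3 library was thus above the highest Timp2 library. Timp4 had no covered T in any labeled library and therefore no rate.

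**Figure D1:**
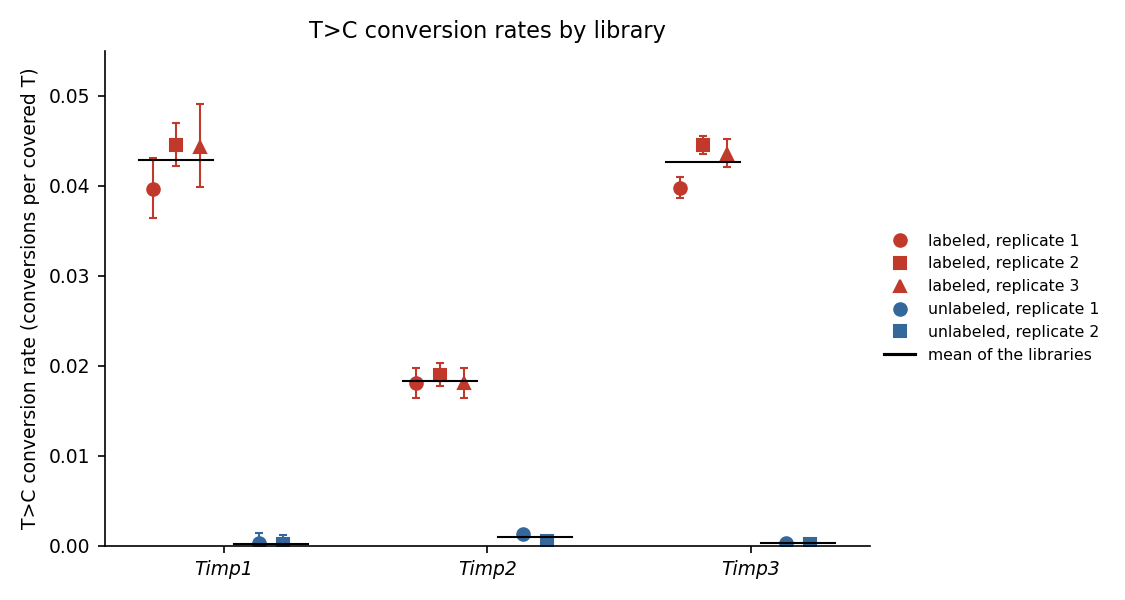
T>C conversion rate (conversions per covered T position) of Timp1, Timp2 and Timp3 in each labeled (red) and unlabeled (blue) library; error bars are exact 95% binomial intervals and lines are group means. The Timp1 and Timp3 points of labeled libraries lie from 0.0397 to 0.0445 and those of Timp2 from 0.0180 to 0.0190.

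The depth behind these rates differed between members. Timp3 rested on 108942, 155242 and 66794 covered T positions in labeled replicates 1 to 3, and its exact 95% binomial (Clopper-Pearson) intervals were 0.0386 to 0.0409, 0.0435 to 0.0456 and 0.0420 to 0.0451. For Timp2, 25640, 42720 and 25447 positions gave 0.0165 to 0.0198, 0.0177 to 0.0203 and 0.0164 to 0.0197. Timp1 had the fewest, with 13538, 28964 and 7928 positions and intervals of 0.0364 to 0.0431, 0.0422 to 0.0470 and 0.0399 to 0.0490. Such intervals cover counting error only and treat T positions of 1 read as independent. None of the Timp2 intervals reached any interval of Timp1 or Timp3.

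In unlabeled libraries all 3 detected members were near 0. Timp1 had 1 conversion in each unlabeled library, of 3976 and 4667 covered T positions. Timp3 had rates of 0.00030 and 0.00019, and Timp2 had 0.0013 and 0.00052, the highest background of the members in both libraries. The background of Timp2 was close to that of all intervals in the same libraries, at 1.17 and 0.801 times it, while Timp1 was at 0.226 and 0.329 times and Timp3 at 0.271 and 0.291 times it.

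The effect of labeling was tested by a beta-binomial model on every interval with a covered T in all libraries. The unadjusted p was 2.01e-07 for Timp1, 7.81e-07 for Timp2 and 5.62e-08 for Timp3, and the rate was higher in all 3 labeled libraries than in both unlabeled libraries for each. Such a rise was called for 94.6% of the 19240 intervals tested, so that it marks labeling in general and is not a result about the family. Timp4 had 20 and 31 covered T positions in the unlabeled libraries and none in the labeled ones, and was not tested.

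Differences between members were taken within each labeled library. Timp1 exceeded Timp2 by 0.0216, 0.0256 and 0.0262 in replicates 1 to 3, a ratio of 2.20, 2.35 and 2.45. The mean difference was 0.0245 ± 0.0025 (SD), higher in 3 of 3 libraries. Timp2 minus Timp3 was -0.0217, -0.0256 and -0.0255, with a mean of -0.0243 ± 0.0022 (SD). Timp2 therefore ran at 0.454, 0.426 and 0.414 times the rate of Timp3.

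Timp1 and Timp3 did not differ beyond their spread. Their difference was -8.0e-05, -5.3e-06 and 0.00071 in replicates 1 to 3, with a mean of 0.00021 ± 0.00043 (SD). The normal 95% intervals within a library ran from -0.0036 to 0.0034, from -0.0026 to 0.0026 and from -0.0041 to 0.0055. The narrowest of these, in labeled replicate 2, holds differences of up to 0.0026 in either direction.

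The exact two-sided permutation test over the 3 labeled libraries (sign flips within a library) gave p = 0.25 for Timp1 against Timp2 and for Timp2 against Timp3, and p = 1 for Timp1 against Timp3. With 3 libraries 0.25 is the smallest p this test can give, so that no pair could pass 0.05. Adjusted over the 3 pairs that could be formed, the exact p-values were 0.375, 0.375 and 1. The 3 pairs with Timp4 could not be formed.

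Labeled replicate 1 had the lowest rate of Timp1 and Timp3, and the replicates of a member differed by a factor of 1.12 at most. Relative to the rate of its own library over all intervals, Timp1 was at 1.12, 1.24 and 1.24 times and Timp3 at 1.13, 1.24 and 1.22 times. Timp2 was at 0.512, 0.530 and 0.507 times. So Timp1 and Timp3 were above the rate of all intervals in each labeled library and Timp2 below it.

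Against other transcripts, Timp2 lay in the slow tail and Timp1 and Timp3 above the middle (plot of TIMP conversion rates among deeply covered genes). Deeply covered genes, with 1000 or more covered T positions in each of the 5 libraries, numbered 2107, and their mean labeled rates had a median of 0.0388, with quartiles at 0.0343 and 0.0422. Of these genes, 79.0% had a lower rate than Timp1, 77.6% a lower one than Timp3 and 6.69% a lower one than Timp2. The place of Timp2 was steady, from 6.41% to 7.36% in the 3 labeled libraries. Timp1 moved from 62.1% to 83.0% and Timp3 from 63.1% to 83.0%, and labeled replicate 1 gave the lowest place of both.

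**Figure D2:**
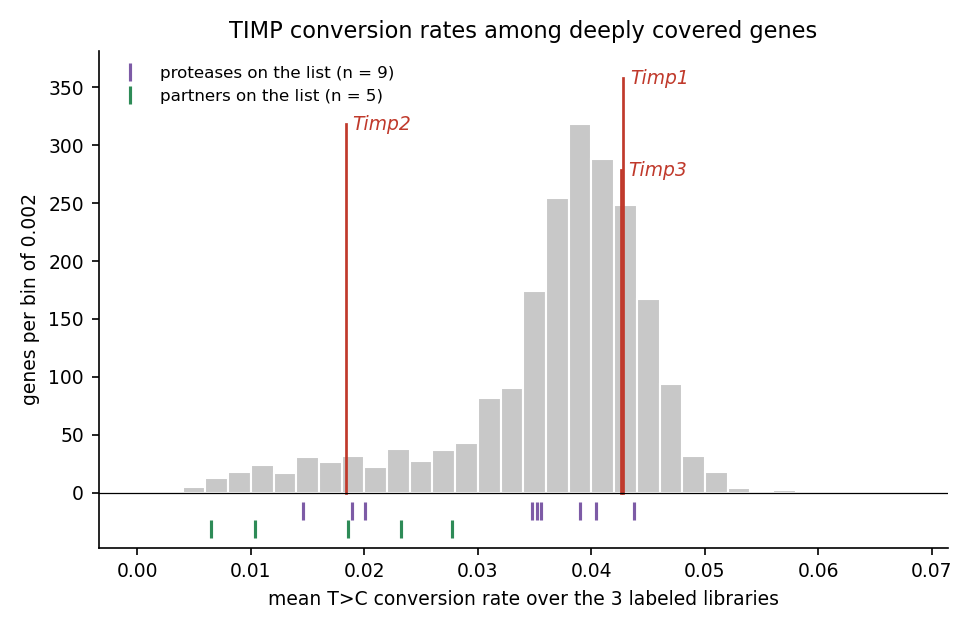
Number of genes by mean T>C conversion rate over the 3 labeled libraries, for the 2107 deeply covered genes. Red lines mark the members and ticks below the axis the listed proteases and partners with the same coverage. Timp2 stands at 0.0184 in the low tail, and Timp1 at 0.0428 and Timp3 at 0.0426 lie above the median of 0.0388.

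The genes closest in rate were sought for each member among genes within 2-fold of its level and with the same coverage, as the root mean square difference over the 3 labeled libraries. Of 310 candidates for Timp1, the nearest were Msn, Ywhaz and Ccnd2, with differences of 0.00044, 0.00048 and 0.00073. Of 151 for Timp2, they were Eef1b2, Laptm4a and Lum, with 0.00090, 0.0011 and 0.0014. Msn encodes the membrane linker moesin and Ccnd2 the cell cycle protein cyclin D2. Eef1b2 encodes a translation elongation factor subunit and Lum the matrix proteoglycan lumican. Timp3 had 21 candidates, and the nearest were Vim, Actb and Ccn2, with 0.0012, 0.0019 and 0.0021. Vim and Actb encode the cytoskeletal proteins vimentin and β-actin.

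The AU-rich pentamer was set beside the rates as a description. Among 245 intervals that were deeply covered and within 10% of the Timp2 length, 6 had no ATTTA, Timp2 among them. Those 6 had a median rate of 0.0279, and the 239 with ATTTA had 0.0394, with quartiles at 0.0372 and 0.0423. Timp2 at 0.0184 was below both medians. Among 230 intervals of the Timp3 length, the 226 with ATTTA had a median of 0.0404, against 0.0426 for Timp3. Timp1 had a rate of 0.0428 with no copy in its much shorter interval. Among 14 intervals of its length, 12 had no ATTTA, with a median rate of 0.0308.

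The share of reads with at least 1 conversion gave the same low place for Timp2 and split Timp1 from Timp3. It was 19.1%, 25.2% and 25.7% for Timp2 in labeled replicates 1 to 3, 39.6%, 48.6% and 50.1% for Timp1, and 49.5%, 59.1% and 58.8% for Timp3. Timp3 was thus above Timp1 in each library by this measure. The exact 95% binomial intervals of Timp1 and Timp3 did not meet in any labeled library, with upper bounds of 43.1%, 51.0% and 54.7% for Timp1 and lower bounds of 48.2%, 57.9% and 56.96% for Timp3. Reads of the members did not hold the same number of T positions in their intervals. A Timp3 read covered 20.0, 24.3 and 24.4 T positions on average, a Timp1 read 16.5, 16.1 and 16.9, and a Timp2 read 16.0, 20.4 and 22.3. The part of these numbers in the split of Timp1 and Timp3 was not tested. In unlabeled libraries the share was at most 2.08% for any member. There Timp3 had 47 and 27 reads called as converted with 40 and 25 conversions, so that some converted reads carry no conversion counted on the interval.

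Timp3 had the highest level, then Timp2 and then Timp1, in all 5 libraries (plot of TIMP transcript levels by library). In 3′ end libraries a transcript gives about 1 read whatever its length, and levels are compared on that scale with no length scaling. In a bulk library, fewer cells that express a gene and less RNA per cell cannot be told apart. Timp3 had a deposited level of 455, 454 and 187 CPM in labeled replicates 1 to 3 and of 398 and 461 CPM in unlabeled replicates 1 and 2. Its labeled mean of 365 ± 154 CPM (SD, n = 3) placed it 12th of 20365 gene names. Timp2 had 134, 149 and 78.1 CPM in labeled and 116 and 150 CPM in unlabeled libraries, with a labeled mean of 120 ± 37.4 CPM (SD, n = 3) and place 52. Timp1 had 68.7, 128 and 32.1 CPM in labeled but 15.7 and 25.7 CPM in unlabeled libraries, with a labeled mean of 76.2 ± 48.4 CPM (SD, n = 3) and place 111. Without labeled replicate 2 the mean of Timp1 was 50.4 CPM.

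**Figure D3:**
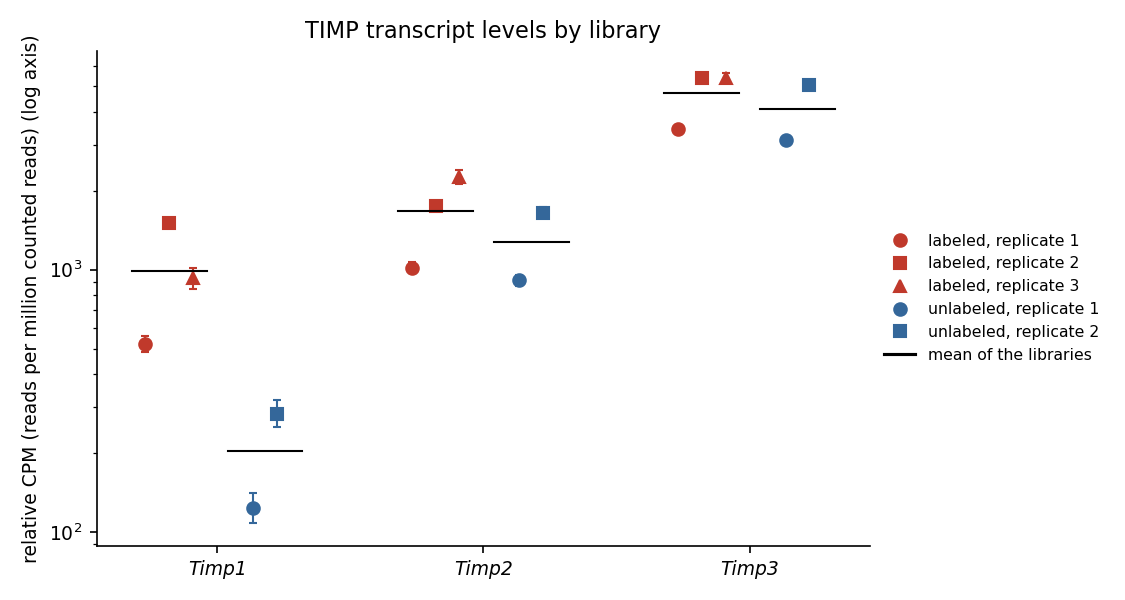
Relative CPM, the reads of a gene scaled to the counted reads of its library (log axis), of Timp1, Timp2 and Timp3 in each labeled (red) and unlabeled (blue) library, with exact 95% binomial intervals and group means as lines. Every labeled Timp1 point, the lowest at 520.3, is above both unlabeled ones at 124 and 283, while the groups of Timp2 and Timp3 overlap.

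In relative CPM, Timp3 had 3448, 5354 and 5401 in labeled and 3128 and 5074 in unlabeled libraries. Timp2 had 1018, 1756 and 2257 in labeled and 912 and 1648 in unlabeled libraries. For both, labeled replicate 1 was below unlabeled replicate 2, and the groups overlapped. Timp1 had 520.3, 1509 and 927 in labeled and 124 and 283 in unlabeled libraries. Its labeled and unlabeled groups did not overlap. The ranges of Timp1 and Timp2 in labeled libraries overlapped, and those of Timp2 and Timp3 did not.

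Timp4 was at the detection limit. It had 0 reads in each labeled library and 1 read in each unlabeled library. A count of 0 allows up to 3 reads, which is 1.90, 2.51 and 5.93 relative CPM in labeled replicates 1 to 3. Against this limit per library, Timp4 was at least 273-fold, 601-fold and 156-fold lower than Timp1 in the same 3 libraries. That statement holds for transcripts that end in the counted interval, as given above.

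Within a library the ratio of Timp3 to Timp2 reads, which does not depend on the scaling, was 3.39, 3.05 and 2.39 in labeled and 3.43 and 3.08 in unlabeled libraries. Timp2 to Timp1 was 1.96, 1.16 and 2.43 in labeled but 7.37 and 5.82 in unlabeled libraries. Of all TIMP reads, Timp1 took 10.4%, 17.5% and 10.8% in labeled and 2.97% and 4.04% in unlabeled libraries. The exact 95% binomial intervals were 9.77% to 11.1%, 16.8% to 18.3% and 9.89% to 11.8% in labeled and 2.60% to 3.38% and 3.59% to 4.53% in unlabeled libraries. The labeled mean was 12.9% ± 3.98 (SD, n = 3) and the unlabeled mean 3.51%, with p = 0.1 in the exact two-sided permutation test of the absolute difference, the smallest p that 3 against 2 libraries can give.

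Reads of labeled and unlabeled libraries were compared across all genes with edgeR's quasi-likelihood test and Benjamini-Hochberg adjustment. The question is whether the members' levels were alike with and without S4U, since the rates were measured with it. Timp1 was higher in labeled libraries by a log2 fold change of 2.34 ± 0.59 (SE), or 5.07-fold, with an unadjusted p of 0.00513 in edgeR's test and an adjusted p of 0.585, which does not pass 0.05. The log2 fold change was 1.83 without unlabeled replicate 1 and 3.13 without unlabeled replicate 2. Timp2 had a log2 fold change of 0.46 ± 0.44 (SE) and Timp3 one of 0.28 ± 0.35 (SE), both with an adjusted p of 1.00 by edgeR. Timp4 was removed by the filter on low counts. No gene of the 9807 tested passed (0%), while 585 had an unadjusted p below 0.05, and 2.84% of the genes tested were higher at that p, Timp1 among them. In the order of log2 fold changes Timp1 was 14th of 9807, and the median over all genes was 0.02.

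The call on Timp1 depended on the tool and on the design. In edgeR, a fit with the replicate number as a block called it, and the values stand with the other alternatives in the closing section. DESeq2 gave a log2 fold change of 2.34 ± 0.55 (SE) and an adjusted p of 0.0121, and it called 13 genes higher and 7 lower. These 13 are 0.187% of the genes to which DESeq2 gave an adjusted p. By the plain criterion that all 3 labeled libraries lie above both unlabeled ones in relative CPM, Timp1 was 1 of 804 genes, or 8.20% of those tested. Timp2 and Timp3 were not among them.

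In relative CPM, libraries with the replicate number 1 were lower than those with the number 2 for each detected member in both groups. On that scale, labeled replicate 2 had 2.90, 1.72 and 1.55 times the level of labeled replicate 1 for Timp1, Timp2 and Timp3. Unlabeled replicate 2 had 2.29, 1.81 and 1.62 times that of unlabeled replicate 1. The labeled ratios were smaller in deposited CPM. There labeled replicates 1 and 2 had 68.7 and 128 for Timp1, 134 and 149 for Timp2 and 455 and 454 for Timp3. Within number 1 the labeled level of Timp1 was 4.21 times the unlabeled one, and within number 2 it was 5.33 times. For Timp2 these ratios were 1.12 and 1.07, and for Timp3 they were 1.10 and 1.06. Sums of the other listed cell markers moved with the number as well, except for the mural sum in the labeled group. It was 8.25 and 4.18 relative CPM in labeled and 9.22 and 14.1 in unlabeled replicates 1 and 2. The 5 endothelial markers summed to 83.8, 131 and 88.9 relative CPM in labeled and 86.8 and 136 in unlabeled libraries, and the 6 leukocyte markers to 45.0, 85.4 and 53.4 in labeled and 47.7 and 81.3 in unlabeled libraries. The sums of these 2 lists did not separate labeled from unlabeled libraries, and their part in the TIMP levels was not tested. The 3 mesothelial markers had 6, 6 and 3 reads in all in labeled and 1 and 1 in unlabeled libraries, or 3.81, 5.02 and 5.93 against 0.543 and 1.00 relative CPM. Wt1 alone carried the sum, with 6, 5 and 3 reads in labeled and 1 and 1 in unlabeled libraries, while Upk3b had 1 read in all and Msln none. This sum was higher in each labeled library, as Timp1 was, and its part was not tested. CF marker sums were higher in the labeled libraries, at 40405, 40448 and 44089 against 32802 and 36023, and their part in the Timp1 difference was not tested either.

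Reads were then split into those with and without a T>C conversion (plot of reads with and without a T>C conversion). Timp1 reads without a conversion came to 314, 775 and 462 relative CPM in labeled replicates 1 to 3, above the 123 and 282 of the unlabeled libraries. The labeled excess of Timp1 was thus present among unconverted reads too, by the least in labeled replicate 1 (314 against 282). A read without a conversion can still come from RNA made during labeling. In labeled replicate 1 a Timp1 read covered 16.5 T positions on average, at a rate of 0.0397. Old and new RNA are therefore not told apart by this split, and the share of all genes with such an excess was not counted. Timp3 reads without a conversion came to 1741, 2188 and 2223 in labeled and 3102 and 5047 in unlabeled libraries, and so were lower in every labeled library. Labeling itself moves reads out of this class. From 49.5% to 59.1% of labeled Timp3 reads were converted, against at most 0.815% of unlabeled ones. How many of all genes drop in this way was not counted, so that the drop is not a result about Timp3. Timp2 reads without a conversion came to 824, 1314 and 1676 in labeled and 893 and 1629 in unlabeled libraries, and the groups overlapped.

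**Figure D4:**
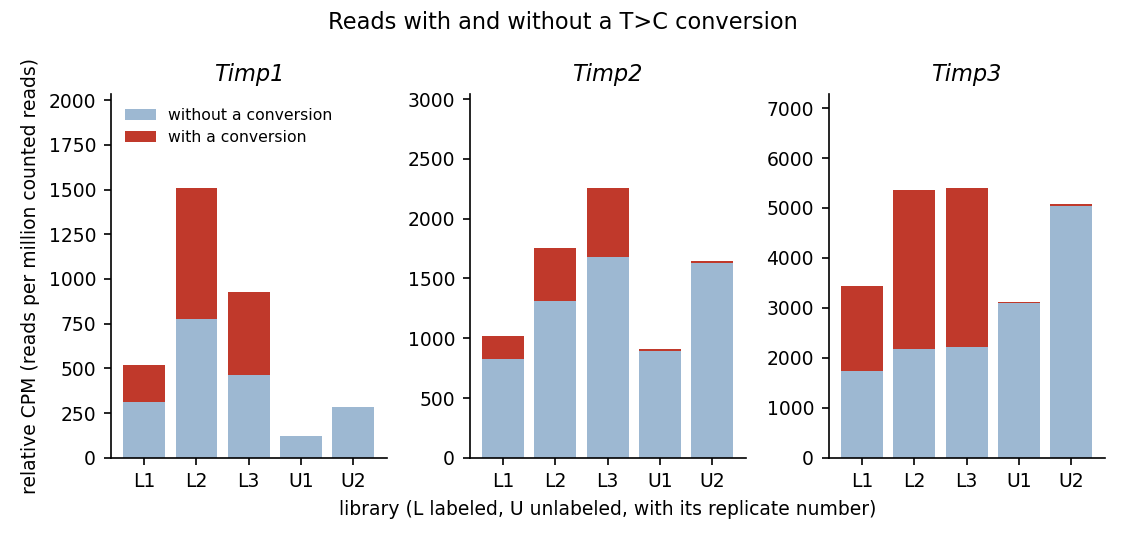
Relative CPM of reads without (blue) and of reads with (red) a T>C conversion, for each library (L labeled, U unlabeled, with its replicate number) and each of Timp1, Timp2 and Timp3, stacked from 0 with an own axis per gene. Unconverted Timp1 reads of labeled libraries (314 to 775) are above all unlabeled ones (123 and 282). Those of Timp3 (1741 to 2223) are below its unlabeled ones (3102 and 5047). Labeling itself moves reads out of the unconverted class, and the share of all genes with either pattern was not counted.

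The proteases that TIMP proteins regulate were read from a list of 24 genes. In edgeR's test of reads 17 could be tested, and without a replicate block none rose or fell at an adjusted p below 0.05. With it some did, as given in the closing section. Of these, 7 had a positive and 10 a negative log2 fold change, with a median of -0.12 against 0.02 over all genes and a range from -0.66 to 0.41. At an unadjusted p below 0.05, 2 of the 17 were lower and none higher, while over all genes tested 3.12% were lower and 2.84% higher. Both were named after their values were seen. Adamts1, an aggrecan- and versican-cutting enzyme, had a log2 fold change of -0.64 ± 0.25 (SE), and Adam17, the shedding enzyme of TNF that TIMP3 inhibits, had -0.61 ± 0.25 (SE). In edgeR's fit, both had an adjusted p of 0.809, and DESeq2 called no listed protease.

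**Figure D5:**
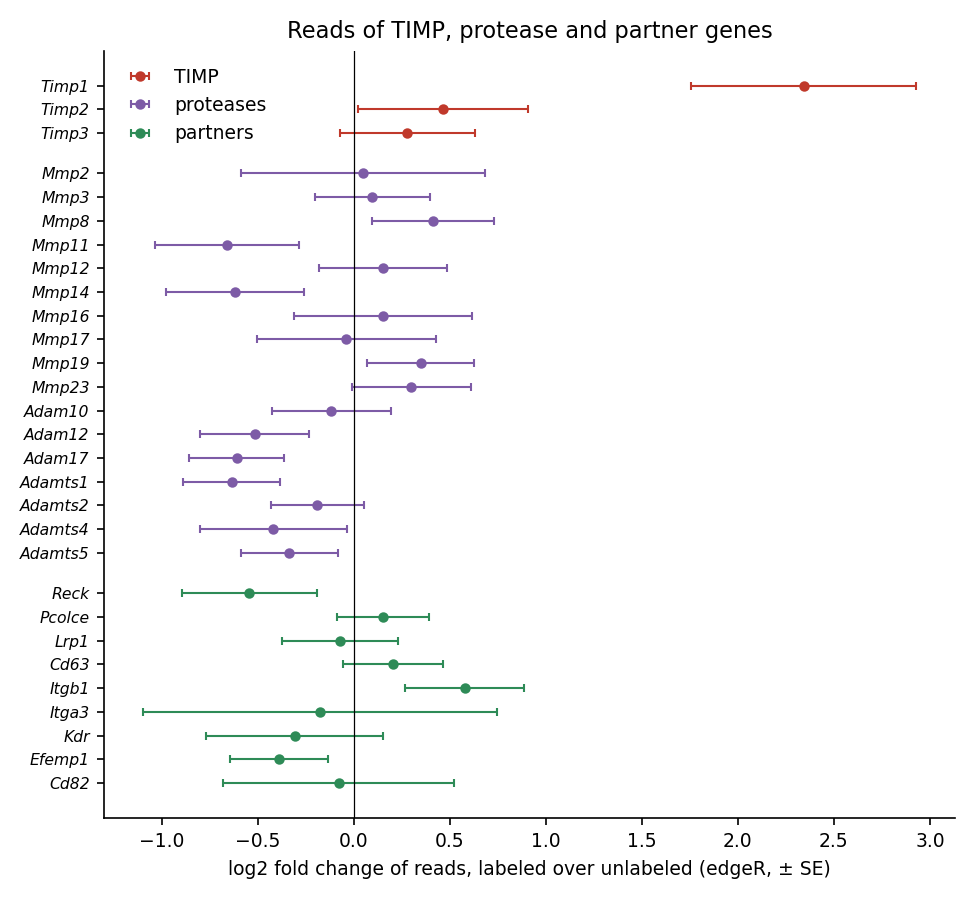
Log2 fold change of reads in labeled over unlabeled libraries with its standard error, from edgeR, for the 3 TIMP genes, 17 proteases and 9 partners that could be tested. Timp1 at 2.34 lies apart from the proteases (-0.66 to 0.41) and partners (-0.54 to 0.58), and no gene drawn passed the adjusted test.

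The proteases with the highest labeled CPM were Adamts5 with 151, Mmp3 with 106 and Adamts2 with 79.8 CPM. In labeled replicates 1 to 3, Adamts5 had 3225, 1827 and 767 reads and Mmp3 had 2212, 1356 and 556. Adamts2 had 1642, 1067 and 383 reads, so that labeled replicate 1 weighed most in each mean. ADAMTS5 cuts aggrecan and is held in check by TIMP3, MMP3 is stromelysin 1, and ADAMTS2 trims procollagen. All 3 were below Timp3, and Adamts5 alone was above Timp2, in mean labeled CPM. Timp2 had 1605, 2098 and 1142 reads in labeled replicates 1 to 3. Adamts5 was thus above Timp2 in labeled replicate 1 only, where Mmp3 and Adamts2 were above it too. Of the 24, 1 had no reads in any labeled library.

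Their rates spread as widely as those of the family. Of 9 deeply covered proteases, the highest mean rates were 0.0437 ± 0.0053 (SD, n = 3) for Adam10, 0.0404 ± 0.0014 for Adamts1 and 0.0390 ± 0.00087 for Adamts5. The lowest were 0.0146 ± 0.0027 for Adamts2, 0.0189 ± 0.0032 for Mmp3 and 0.0200 ± 0.0035 for Mmp2. Mmp2 encodes gelatinase A, the enzyme that TIMP2 binds as a proenzyme, and in labeled replicates 1 to 3 its rates of 0.0173, 0.0188 and 0.0240 spanned those of Timp2. The median of the 9 was 0.0352, with 1 above Timp1 (Adam10) and 1 below Timp2 (Adamts2).

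Binding partners, receptors and other inhibitors were read from a list of 10 genes, 9 of which could be tested for reads. In edgeR's test without a replicate block none passed, with 3 positive and 6 negative log2 fold changes from -0.54 to 0.58. Their median was -0.08. With the block Itgb1 was called higher, as given in the closing section. Cd63, a cell surface partner of TIMP1, was highest with 153 CPM in the labeled mean. Next were Lrp1, an endocytic receptor that clears TIMP and MMP complexes, with 61.2 and Itgb1, the integrin β1 subunit, with 54.7 CPM. By reads, Lrp1 was above Itgb1 in labeled replicate 1 only (1402 against 856). It was below Itgb1 in labeled replicates 2 (614 against 931) and 3 (329 against 387). All 5 deeply covered partners had lower rates than Timp1 and Timp3, as did 79.0% and 77.6% of all deeply covered genes. Itgb1 had 0.0277 ± 0.0021 (SD, n = 3), Lrp1 0.0233 ± 0.0040 and Cd63 0.0186 ± 0.0028. The lowest were Efemp1, whose product fibulin 3 binds TIMP3, with 0.0065 ± 0.0020, and Pcolce, an enhancer of procollagen C-proteinase, with 0.0104 ± 0.0021.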

How the data were processed

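SLAMseq tables of 3 labeled and 2 unlabeled CF libraries were analysed, grouped by the submitters' labels. The authors moved unique molecular identifiers into read headers, used SLAM-DUNK 0.4.3 with mm39 for mapping, deduplicated with umi-tools and counted on 3′ end intervals. The authors deposited raw counts of reads, converted reads, covered T positions and conversions. The deposited conversion rate is a fraction, conversions over covered T positions. The deposited CPM is relative to a number of reads per library that exceeds the counted reads. Removal of duplicates means that a count stands for a molecule, and a 3′ interval misses transcripts that end elsewhere.

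Of 97442 rows per table, 40428 were distinct intervals, and repeated rows were used once. All 40380 intervals on chromosomes of GRCm39 matched its T content, and coordinates count from 1. Exons and transcript ends came from the GENCODE annotation. For each gene the interval of highest mean labeled CPM was kept, with ties settled by more reads and then by length.

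The effect of labeling on rates was tested by a two-sided beta-binomial likelihood-ratio test. The study's methods name a beta-binomial test and the call at a p below 0.05. The unadjusted p and the two-sided likelihood-ratio form were chosen here. Read counts of all genes went into edgeR's quasi-likelihood test with TMM factors, filterByExpr and Benjamini-Hochberg adjustment. The scripts were tested on simulated data. Pairs of members were compared by exact sign-flip permutation. Alternatives were DESeq2, other scalings and filters, limma on log odds with a pseudocount of 0.5, a replicate block, other interval choices and leaving out each library. Replicates differed beyond sampling noise, at 2.04 to 16.6 chi-square units per degree of freedom, so none was taken as a copy of another. Named were the 4 members, the 3 genes nearest in rate to each, and of the lists those passing the read test, the 3 highest in level and the 3 highest and 3 lowest in rate among deeply covered ones. In the read test, Adamts1 and Adam17 were named after their values were seen, and genes called with the replicate block are named for that call. The members and lists were chosen with earlier results of these data known. Scripts ran in Python 3.11.15 (scipy 1.17.1, numpy 2.4.6, numba 0.67.0, pandas 2.3.3, matplotlib 3.10.9) and in R 4.3.3 (DESeq2 1.42.0, limma 3.58.1, edgeR 4.0.16).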

Additional observations from a re-analysis of the deposited data

How the results depend on the processing

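Of 143 alternative values, 8 could not move, since Timp2 and Timp3 have 1 interval each. The 2 Timp1 intervals hold the same 28 T positions. The Timp1 rate and its differences from Timp2 and Timp3 therefore could not move with the choice of interval either. Of the other 135, 120 kept their direction and their side of the threshold or stayed within the spread of replicates. These 120 include the fixed Timp1 values. Intervals with a higher labeled rate numbered 3154 of 3156 tested for deeply covered intervals and 10641 of 11179 with 1 interval per gene, since fewer were tested, and 17056 to 18632 with each library left out. Less background, the Timp2 rate was 0.0174. With a library left out, rates were 0.0420 to 0.0444 for Timp1, 0.0180 to 0.0185 for Timp2 and 0.0417 to 0.0441 for Timp3. The difference was 0.0236 to 0.0259 for Timp1 minus Timp2 and -0.0256 to -0.0236 for Timp2 minus Timp3. For Timp1 minus Timp3 it was -4.3e-05 to 0.00035, and its sign turned without labeled replicate 3. The log2 ratio of Timp1 over Timp2 was 1.22 by rate and 0.99 by the share of converted reads, and that of Timp1 over Timp3 was 0.01 and -0.28. The cause was not tested.

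Levels relative to counted reads were 985, 1677 and 4734 relative CPM for Timp1, Timp2 and Timp3, larger by construction. Summed over its 2 intervals, which share reads, Timp1 had 152 CPM. With a labeled library left out, levels were 50.4 to 98.3, 106 to 142 and 320 to 454 CPM.

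DESeq2 called 20 genes for reads, Timp1 among them (log2 fold change 2.34), and the cause of the difference from edgeR was not tested. Log2 fold changes with a library left out were 1.83 to 3.13 for Timp1, 0.06 to 1.01 for Timp2 and -0.067 to 0.73 for Timp3, which turned sign, to -0.067, without unlabeled replicate 1. No gene was called by edgeR with any library left out (0 to 0). Over all alternatives but the block, the adjusted p of Timp1 ran from 0.0121 to 1.00. The groups share replicate numbers 1 and 2, and the study describes separate preparations with controls incubated in parallel, but does not say that a number marks a preparation. Deviations correlated with r of 0.784 for number 1 and 0.638 for number 2, and labeled replicate 3, which has no partner, had 0.482 with unlabeled replicate 2. With 2 unlabeled libraries, the r of a labeled library with one is the negative of that with the other. With the replicate number as a block, which leaves 1 residual degree of freedom, edgeR called 1146 genes (528 higher, 618 lower), and Timp1 had a log2 fold change of 2.30 (adjusted p = 2.77e-41 in edgeR's fit). Labeled replicate 3 is alone in its block and adds nothing to the group effect of the block fit. The p-values of the block fit therefore lean on the dispersion that edgeR shares across genes, and that of Timp1 does not measure a spread between its own libraries. In that fit 4 of 17 listed proteases were called lower, against 6.30% of all genes tested, with edgeR adjusted p-values of 0.0025 for Adamts1, 0.0063 for Adam17, 0.020 for Mmp14 and 0.040 for Adam12, and 1 of 9 partners higher, Itgb1 (0.018), against 5.38% of all genes. On the T>C log odds limma called 18448 intervals higher with the replicate block.

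Timp4 had no labeled read and so no rate, and depth, a low level and uncounted transcript ends cannot be told apart. Of the 3 detected members depth limits Timp1 most, whose rate in labeled replicate 3 rests on 7928 covered T positions.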
